A study of Mus musculus with 2 samples.

Results

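Collagens, laminins and matricellular proteins make up much of the extracellular matrix, and 74 of the 37681 Ensembl genes counted in this series encode them. Members were taken by gene symbol: all collagen chains named Col with a number, a and a number, all laminin alpha, beta and gamma chains (Lama, Lamb and Lamc), and the nidogens Nid1 and Nid2. The same rule took fibronectin (Fn1), tenascin C (Tnc), the thrombospondins Thbs1 to Thbs4, Sparc, Sparcl1, Spock1 to Spock3, and Ccn1 to Ccn6. They comprised 44 collagens, 11 laminins and 19 nidogen and matricellular genes. The rule used no measured value, but the members were chosen with earlier results of these data known.

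RNA came from the stomach of C57BL/6 mice with an Hdc-CFP transgene, in which cyan fluorescent protein reports activity of the histidine decarboxylase gene Hdc. One library was made from sorted Hdc-CFP-positive cells and is called the sorted library. Its cell type label names the stomach but no region of it. The other library was made from corpus epithelial cells of Hdc-CFP transgenic C57BL/6 mice depleted of Hdc-CFP cells and is called the depleted library. The corpus is the acid-secreting body of the stomach. Each group held 1 library, so no difference has a replicate check, no p-value is given, and every comparison is of these libraries. Neither the age nor the number of mice is given in the sources used here.

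Collagen chains fold into triple helices. Fibrillar collagens build the fibres of connective tissue, collagen IV forms the sheet of the basement membrane under an epithelium, and FACIT collagens sit on fibrils. Laminins are trimers of an alpha, a beta and a gamma chain, bind integrins on the cell surface, and are joined to collagen IV by nidogens. Matricellular proteins such as thrombospondins, SPARC relatives and CCN proteins are secreted into the matrix and modulate adhesion and growth factor signals more than they bear load.

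Gene counts came to 10736538 for the sorted and 50928524 for the depleted cells. Levels are normalised CPM, read counts scaled to library size with TMM factors, and a fold divides the sorted level by the depleted level. Brackets give exact binomial 95% intervals, which cover counting error only. Hdc reached 8750.2 CPM among sorted cells against 21.2 CPM among depleted cells, and 6 endocrine markers were 125-fold to 413-fold higher in the sorted library. Markers of several other cells were lower there: 7 macrophage markers summed to 8.95 against 2737 CPM, and 4 surface mucous markers to 3608 against 154418 CPM. Gland cell markers were lower by less. The 3 parietal cell markers summed to 1365 against 7763 CPM (5.69-fold lower). The 3 chief cell markers summed to 16508.8 against 65931.5 CPM (3.99-fold lower), with Gif under 2-fold at 1.74-fold lower. Chief cell transcripts thus remained abundant in the sorted library. Others were higher there in sum: 5 pancreatic acinar markers (9141 against 39.5 CPM) and 7 mast cell markers (268 against 105 CPM). Of the mast cell markers 5 were higher past 2-fold, while Kit (1.85-fold higher) and Mcpt1 (1.78-fold higher) were under 2-fold. In both libraries, markers of connective tissue and vessels were rare. The 6 fibroblast markers gave 1.31 CPM in sorted against 6.59 CPM in depleted cells, with Pdgfra at 0 in the sorted library and Pdpn at 0 in both. The 7 pericyte and smooth muscle markers gave 2.71 and 5.41 CPM, with Cnn1, Des and Actg2 at 0 in the sorted library. Of these 7, Myh11 was 3.35-fold higher in the sorted library [1.74 to 6.44] on 20 and 22 counts, and 2 were lower past 2-fold. The 7 endothelial markers summed to 21.9 and 10.1 CPM, of which Esam alone gave 19.2 and 3.56 CPM, with Cdh5 and Emcn at 0 in the sorted library. Vwf was also higher there, 6.24-fold [3.01 to 13.5] on 22 and 13 counts, while 3 endothelial markers were lower past 2-fold. The 4 glial markers summed to 13.2 and 2.12 CPM, with Sox10 at 0 in both, and the 5 mesothelial markers to 0 and 0.668 CPM. The part of these other cells in the results below was not tested, and in pooled RNA fewer cells of a type and less RNA per cell cannot be told apart.

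Of the 74 members, 56 were measured, meaning at least 10 counts in at least 1 library. Of the others, 11 had 1 to 9 counts and 7 were listed at 0 in both libraries (Ccn5, Col13a1, Col19a1, Col22a1, Col24a1, Col2a1 and Lamc3). A member counted as higher or lower when it differed 2-fold or more and its interval lay clear of 1, and against 0 counts the fold was taken at a floor of 3 counts. By this rule 17 members stood higher in the sorted library and 25 lower, while 14 passed neither way. Among all 16682 measured genes 21.9% were higher and 21.9% lower (3652 and 3651 genes, or 4741 and 2792 with no scaling factor). With TMM factors, 30.4% of measured members were higher and 44.6% lower, both above the shares of all measured genes. With no scaling factor 18 of the 56 were higher and 21 lower, beside those 4741 and 2792 of 16682 genes. The higher share of members then lay nearer that of all genes. Members that entered through high counts in 1 library alone raise these shares, which describe the libraries and support nothing further.

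The median log2 fold of the measured members was -1.47, against -0.05 for all measured genes, and -0.62 against -0.03 once 0-count genes take their bound. The summed level went the other way. Members took 38097 counts or 0.355% of gene counts in the sorted library and 32045 counts or 0.0629% in the depleted library, a 4.38-fold higher summed level [4.32 to 4.45]. Most of that came from Ccn3, without which the sum was 1.70-fold higher [1.66 to 1.73].

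**Figure D1:**
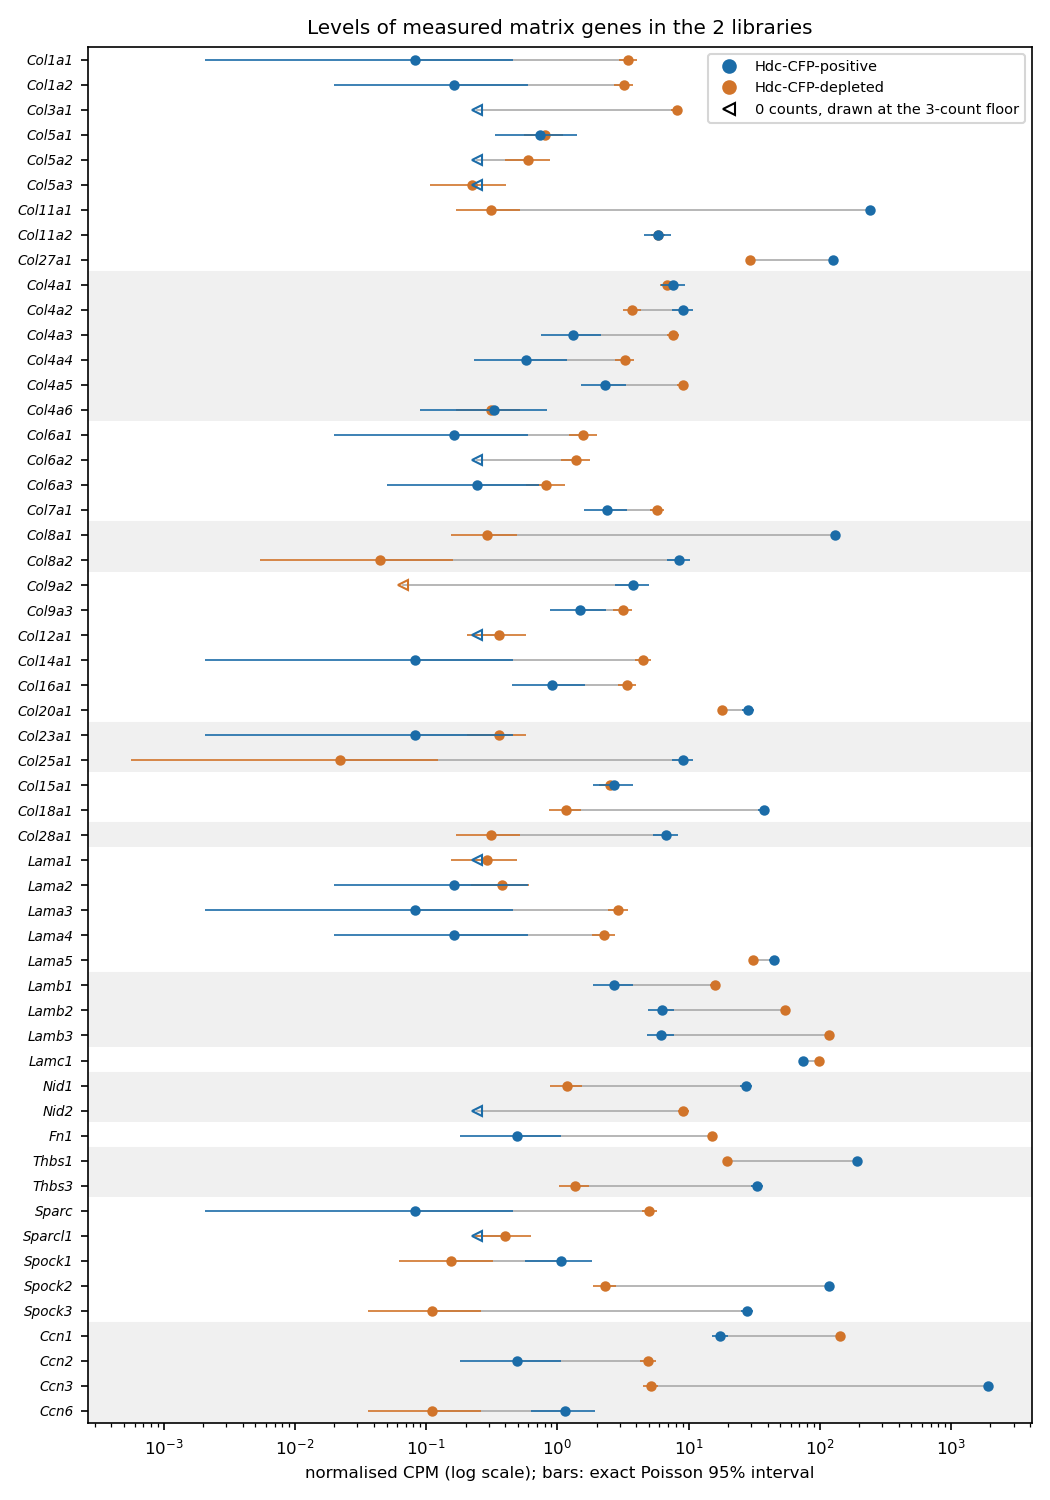
Normalised CPM (horizontal log axis) of 55 measured members in the Hdc-CFP-positive and Hdc-CFP-depleted libraries, in shaded bands by protein class, with exact Poisson 95% intervals and open triangles at the 3-count floor for 0 counts. Ccn3 is the highest point at 1927 CPM in the sorted library, and the laminin beta chains all lie lower in the sorted library.

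The promoters of the 2 collagen genes with the highest point estimates, Col11a1 and Col8a1, and of Lamb3, the laminin gene with most counts in the depleted library, are shown because they were called in opposite directions on high counts in 1 library. Each is the 250 bases upstream of the annotated RefSeq start in GRCm38.p6, on the strand of the gene, and the counts were made on mm9, so these coordinates belong to another build. Capitals mark matches on either strand to GGGCGG (a GC box), TATAAA (the TATA box), TGACGTCA (the cAMP response element), TGANTCA (an AP-1 site) and the E-boxes CAGATG and CAGCTG, none of which overlap here.
Col11a1 (chr3:114030290-114030539, + strand): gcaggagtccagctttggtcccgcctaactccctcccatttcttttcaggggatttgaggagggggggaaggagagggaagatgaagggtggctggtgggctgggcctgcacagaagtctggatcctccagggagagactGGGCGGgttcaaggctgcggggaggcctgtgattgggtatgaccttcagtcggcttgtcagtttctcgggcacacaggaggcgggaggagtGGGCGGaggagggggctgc
Col8a1 (chr16:57754738-57754987, - strand): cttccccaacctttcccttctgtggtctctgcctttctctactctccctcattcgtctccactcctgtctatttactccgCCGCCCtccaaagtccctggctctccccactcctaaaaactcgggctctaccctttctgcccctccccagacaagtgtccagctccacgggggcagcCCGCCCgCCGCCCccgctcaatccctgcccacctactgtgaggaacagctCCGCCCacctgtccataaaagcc
Lamb3 (chr1:193301744-193301993, + strand): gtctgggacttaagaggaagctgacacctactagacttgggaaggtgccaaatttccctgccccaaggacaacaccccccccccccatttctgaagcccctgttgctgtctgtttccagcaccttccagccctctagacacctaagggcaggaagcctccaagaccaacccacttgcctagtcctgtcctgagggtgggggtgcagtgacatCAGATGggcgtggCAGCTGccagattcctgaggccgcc
Col11a1 and Col8a1 held matches to the GC box and to no other motif searched, while the Lamb3 window held both E-boxes and no GC box. GC boxes were present in 32.7% of the 32851 promoter windows in the table, CAGATG in 14.4% and CAGCTG in 13.0%. TATAAA was in 12.4%, TGANTCA in 6.75% and TGACGTCA in 1.55%. The table held 51 of the 74 members. Among members in it, a GC box occurred for 11 of 15 that were higher and 7 of 14 that were lower in the sorted library, CAGATG for 1 of 15 and 5 of 14, and CAGCTG for 2 of 15 and 3 of 14. A member counted when any window under its symbol held the letters, whereas the shares of all promoters are per window, so these are unlike measures. A match is a description of letters and not evidence of binding.

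The CCN proteins are secreted matricellular regulators that bind integrins and growth factors, and their members lay on both sides of the comparison. Ccn3 (ENSMUSG00000037362, formerly Nov) had 23469 sorted and 232 depleted counts, or 1927 and 5.17 CPM. It was 373-fold higher in the sorted library [328 to 426], within the span of the 6 endocrine markers. This fold also lay within the span of the 5 pancreatic acinar markers, from 71.9-fold (Ctrb1) to 532-fold (Cel). Per kilobase of annotated exon it stood at 672 CPM in the sorted library, rank 25 of 16149 measured genes with a length, and at 1.80 CPM, rank 10496, in the depleted library. It alone took 61.6% of the member counts among sorted cells and 0.724% among depleted cells.

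Ccn1 (formerly Cyr61), an immediate-early gene induced by serum and mechanical load, ran in the opposite direction. It had 211 sorted and 6427 depleted counts, or 17.3 and 143 CPM, 8.26-fold lower in the sorted library [7.20 to 9.52]. Per kilobase Ccn3 exceeded Ccn1 78.3-fold [68.4 to 90.1] within the sorted library, while within the depleted library the ratio of Ccn3 to Ccn1 was 0.0254 [0.0222 to 0.0290]. The order of the pair was thus reversed between the libraries. Ccn2 (connective tissue growth factor), often induced with Ccn1, had 6 and 221 counts and was 9.99-fold lower [4.52 to 27.5]. Ccn6 was 10.3-fold higher [3.51 to 36.6] on 14 counts against 5. Both of the last values are uncertain, since 23.2% of the exon bases of Ccn2 and 34.0% of those of Ccn6 overlap an antisense gene (Gm15270 and Tube1) and the strand setting of the counting was not given. Ccn4 had 0 and 2 counts.

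**Figure D2:**
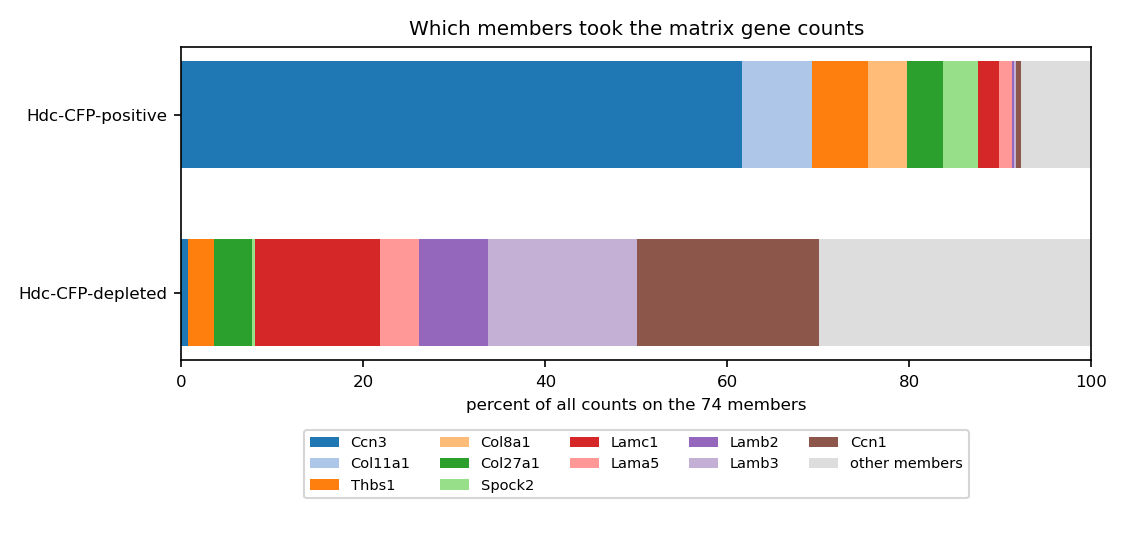
Share of all counts on the 74 members (horizontal axis, percent) taken by 11 named members in the Hdc-CFP-positive (upper bar) and Hdc-CFP-depleted (lower bar) library, with the rest in grey. Ccn3 takes 61.6% of the sorted bar, while Ccn1, Lamb3 and Lamc1 together take 50.1% of the depleted bar.

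Thrombospondins are multimeric glycoproteins that bind calcium and matrix proteins. Thbs1, an activator of latent TGF-beta and a ligand of CD47, had 2346 sorted and 889 depleted counts. At 193 against 19.8 CPM it was 9.73-fold higher [9.0 to 10.5]. Thbs3, of the subgroup that includes cartilage oligomeric matrix protein, had 405 and 61 counts and was 24.5-fold higher [18.7 to 32.6], with 6.59% of its exon bases overlapping the antisense gene Mtx1. Both measured thrombospondins were therefore higher, beside 21.9% of all measured genes called higher. Thbs2 and Thbs4, with no sorted counts and with 9 and 5 depleted counts, were not measured.

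The SPARC family split by subgroup. Spock1, Spock2 and Spock3 encode testicans, secreted proteoglycans best known from the brain. All 3 were higher in the sorted library, beside 21.9% of all measured genes called higher. Spock2 had 1426 sorted and 103 depleted counts, 117 and 2.29 CPM, and was 51.1-fold higher [41.8 to 63.0]. Spock3 had 340 and 5 counts and was 251-fold higher [106 to 777]. Spock1 was near the count limit, with 13 and 7 counts, and was 6.85-fold higher [2.54 to 20.3]. Sparc itself, a collagen-binding protein of stromal and endothelial cells, went the other way with 1 sorted and 226 depleted counts, a depleted-to-sorted ratio of 61.3 [10.9 to 2431]. Sparcl1 had 0 and 18 counts, a bound of 1.63-fold lower that did not reach 2-fold.

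Fibronectin, the integrin-binding glycoprotein on which matrix assembles, was low in the sorted library. Fn1 had 6 counts there and 682 in the depleted library, or 0.493 and 15.2 CPM, 30.8-fold lower [14.1 to 84.3]. Macrophage markers, whose sum was lower by 306-fold [253 to 372], moved in the same direction, and their part in this value was not tested. Tenascin C (Tnc) had 1 and 9 counts and was not measured.

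Among 9 measured fibrillar collagens, 2 were higher and 4 lower in the sorted library, beside 21.9% of all measured genes called each way. Col11a1 (ENSMUSG00000027966), which encodes a chain of collagen XI that limits fibril width in cartilage, had 2952 sorted and 14 depleted counts. It stood at 242 against 0.312 CPM and was 778-fold higher [463 to 1424], the highest point estimate of any member, with an interval that overlapped those of Col8a1, Col8a2, Col25a1 and Spock3. Col11a2, another chain of the same collagen, had 71 and 264 counts and had an interval that spanned 1 (0.992-fold [0.752 to 1.29]). Per kilobase Col11a1 exceeded Col11a2 22.4-fold [17.7 to 28.8] in the sorted library, and the ratio was 0.0286 [0.0154 to 0.0489] in the depleted library.

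Col27a1, a fibrillar collagen gene of cartilage, was present in both libraries with 1548 and 1332 counts. At 127 CPM against 29.7 CPM it was 4.29-fold higher in the sorted library [3.98 to 4.61]. The main collagens of connective tissue fibres went the other way. Col1a1 had 1 and 156 counts, with a depleted-to-sorted ratio of 42.3 [7.48 to 1682], and Col1a2 had 2 and 144 counts, with a ratio of 19.5 [5.31 to 163]. Col3a1, with 0 sorted and 364 depleted counts, was at least 32.9-fold lower, and Col5a2, with 0 and 27 counts, at least 2.44-fold lower, a call that was lost with no scaling factor. Col5a1 had an interval that spanned 1 (0.922-fold [0.391 to 1.95] on 9 and 36 counts), and Col5a3, with 0 and 10 counts, gave no usable bound. The median log2 fold of the group was -3.78 but -0.12 once 0-count genes take their bound, whereas its summed level was 7.20-fold higher [6.85 to 7.57] through Col11a1 and Col27a1.

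The network collagen VIII, a short-chain collagen of vessel walls and of the inner basement membrane of the cornea, was carried by both of its genes. Col8a1 had 1604 sorted and 13 depleted counts, 132 and 0.290 CPM, and was 455-fold higher [265 to 856]. Col8a2 had 103 and 2 counts, a ratio of sorted to depleted of 190 [51.3 to 1589]. Col8a1 exceeded Col8a2 per kilobase by 8.92-fold [7.31 to 11] in the sorted library. Col10a1, of the same class and best known from growth plate cartilage, had 4 and 6 counts and was not measured.

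Several minor collagens also had most of their level in the sorted library. Col25a1, a transmembrane collagen of neurons, had 110 counts there and 1 in the depleted library, a sorted-to-depleted ratio of 406 [71.3 to 16165]. Col9a2, a chain of cartilage collagen IX, had 46 and 0 counts and was at least 56.5-fold higher, although its usual partner chains did not follow: Col9a1 had 0 and 1 counts, and Col9a3, with 18 and 141, was 2.12-fold lower [1.30 to 3.69], a call lost with no scaling factor. Of the exon bases of Col9a3, 6.07% overlap the antisense gene Tcfl5. Col28a1, a collagen with von Willebrand factor domains found around nerves, had 82 and 14 counts and was 21.6-fold higher [12.2 to 41.2]. Col18a1, a basement membrane multiplexin whose fragment is endostatin, had 455 and 52 counts and was 32.3-fold higher [24.2 to 43.9]. Its relative Col15a1 had an interval that spanned 1 (33 and 113 counts, 1.08-fold [0.708 to 1.60]).

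Among the FACIT collagens and collagens VI and VII, Col9a2 alone was called higher, beside 21.9% of all measured genes called each way. Col14a1 had 1 and 201 counts, a depleted-to-sorted ratio of 54.5 [9.67 to 2164], and Col16a1 was 3.77-fold lower [2.05 to 7.72] on 11 and 153 counts. Col12a1 had 0 and 16 counts, a bound of 1.45-fold lower. Col20a1, the FACIT collagen with most counts (345 and 805), was 1.58-fold higher [1.39 to 1.79], or 2.03-fold with no scaling factor. Collagen VI, a microfibril-forming collagen of most connective tissue, was lower in all 3 measured genes. Col6a2 had 0 and 62 counts and was at least 5.60-fold lower, while the ratios of depleted to sorted were 9.63 [2.57 to 81.0] for Col6a1 (2 and 71 counts) and 3.34 [1.06 to 17] for Col6a3 (3 and 37 counts), whose call was lost with no scaling factor. Col7a1, of the anchoring fibrils under stratified epithelium, had 29 and 257 counts and was 2.40-fold lower [1.63 to 3.66], again a call lost with no scaling factor. Col23a1, a transmembrane collagen, had 1 and 16 counts and had an interval that spanned 1. Both Col17a1 (4 and 2 counts), the hemidesmosome collagen, and Col26a1 (1 and 0) were not measured, and neither were Col6a4, Col6a5 and Col6a6.

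**Figure D3:**
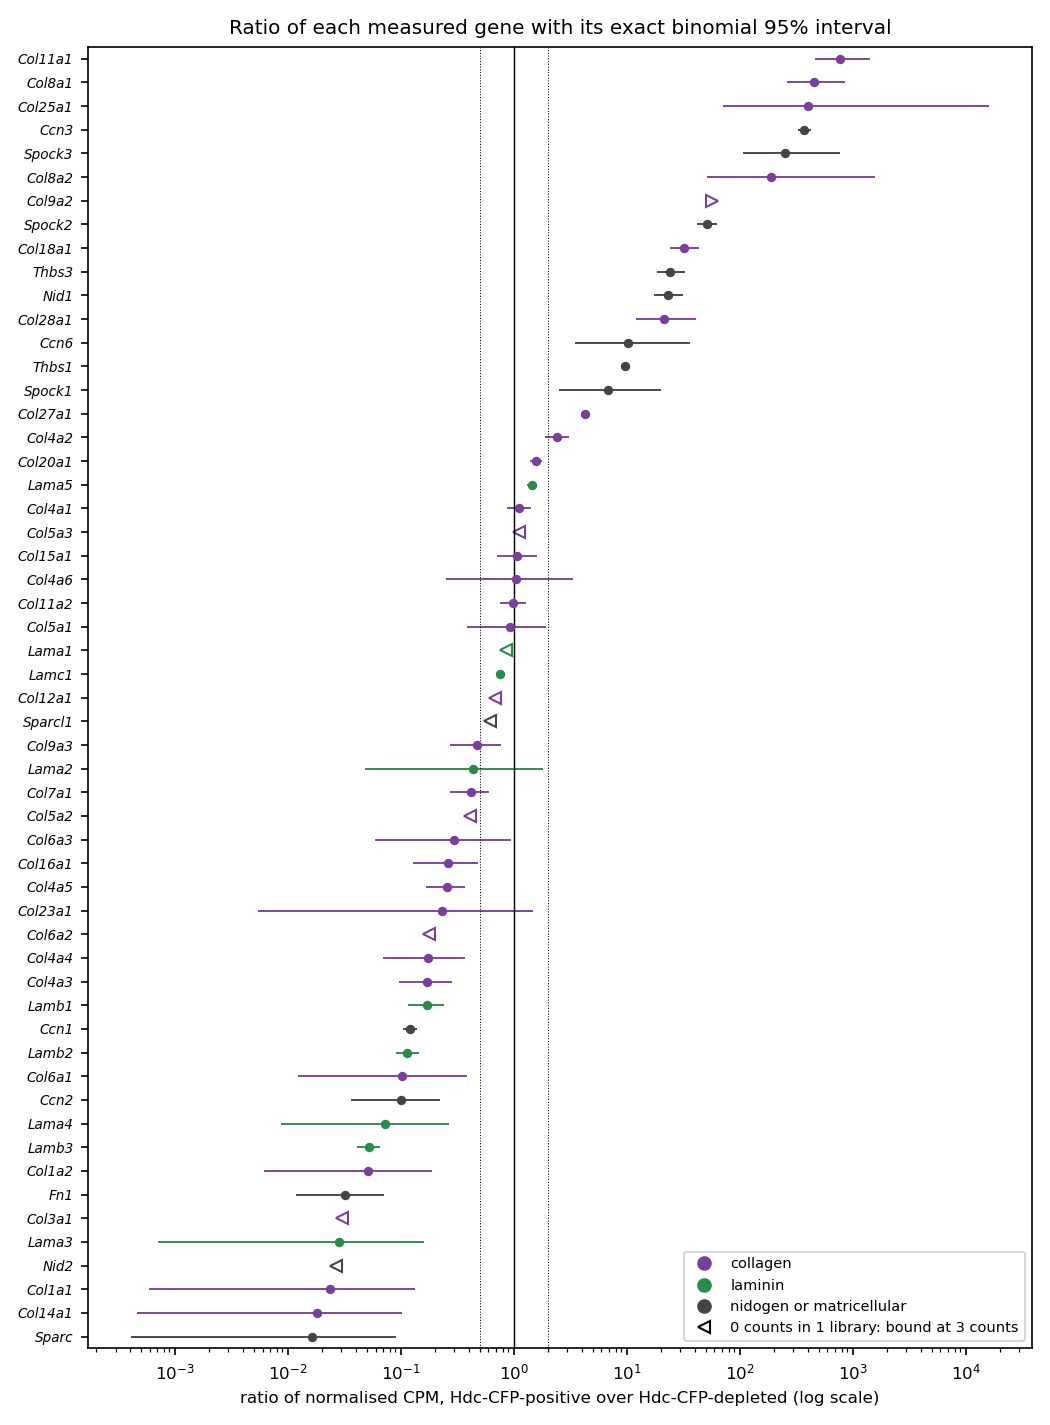
Fold of 55 measured members (horizontal log axis, sorted over depleted library) in descending order, with exact binomial 95% intervals, the 2-fold limits as dotted lines and open triangles for bounds where 1 library had 0 counts. Col11a1 leads at 778-fold, no laminin lies above the upper limit, and Sparc has the lowest point estimate.

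No laminin was called higher. Of 11 genes 10 were measured, and 0 were higher and 6 lower, beside 21.9% of all measured genes called each way. The summed level of the laminins was lower by 2.52-fold [2.40 to 2.64]. They took 4.80% of member counts in the sorted library and 53.0% in the depleted library. The chains did not move by the same amount, so the mix of chains differed between the libraries.

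All 3 beta chains were lower, beside 21.9% of all measured genes called lower. Lamb3, the beta chain of the hemidesmosome-anchored epithelial laminin, had 75 sorted and 5239 depleted counts, or 6.16 and 117 CPM, 18.9-fold lower [15.1 to 24.1]. Lamb2, a beta chain of vessel, muscle and kidney basement membranes, had 76 and 2436 counts and was 8.69-fold lower [6.92 to 11.1]. Lamb1, the widely expressed beta chain, had 33 and 711 counts and was 5.84-fold lower [4.12 to 8.55]. Within the depleted library Lamb3 exceeded Lamb2 1.98-fold per kilobase [1.89 to 2.08], but in the sorted library they could not be told apart (0.908-fold [0.651 to 1.27]).

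Lamc1 and the alpha chains were less uniform. Lamc1, the widely expressed gamma chain, had 910 and 4399 counts, 74.7 and 98.0 CPM, and was 1.31-fold lower [1.22 to 1.41], under 2-fold, with a sorted-to-depleted ratio of 0.981 with no scaling factor. Lama3, an alpha chain of epithelia with hemidesmosomes, had 1 and 130 counts, a depleted-to-sorted ratio of 35.3 [6.22 to 1403].

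Lama5, the main alpha chain of adult epithelial basement membranes, had 546 sorted and 1391 depleted counts. It stood at 44.8 and 31.0 CPM, 1.45-fold higher [1.31 to 1.60] and under 2-fold, or 1.86-fold higher with no scaling factor. It held most alpha chain counts in both libraries, 546 of 551 in the sorted and 1391 of 1652 in the depleted library. Lama4, of vessels and muscle, had 2 and 101 counts and a depleted-to-sorted ratio of 13.7 [3.69 to 115]. Lama1 (0 and 13 counts) and Lama2 (2 and 17 counts) did not reach the rule. Per kilobase Lamc1 exceeded Lamb1 33.1-fold [23.4 to 48.3] in sorted and 7.42-fold [6.85 to 8.04] in depleted cells, so Lamc1 stood further above Lamb1 in the sorted library.

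The 2 nidogens, which tie laminin to collagen IV, went in opposite directions. Nid1 had 335 sorted and 53 depleted counts, 27.5 and 1.18 CPM, 23.3-fold higher [17.4 to 31.8]. Nid2 had 0 and 409 counts and was at least 37.0-fold lower. Thus no Nid2 count was found in the library where Nid1 was high, and in the depleted library the ratio of Nid1 to Nid2 was 0.0966 per kilobase [0.0711 to 0.129]. Of the exon bases of Nid2, 8.45% overlap the antisense gene Rtraf.

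Of the 6 collagen IV chains, 1 was higher, 3 were lower and 2 passed neither way, beside 21.9% of all measured genes called each way. Col4a1 and Col4a2, the pair found in nearly all basement membranes and transcribed from a shared promoter region, had 93 and 110 counts in the sorted library, and 306 and 167 in the depleted library. Col4a2 was 2.43-fold higher [1.89 to 3.11], and Col4a1 had an interval that spanned 1 (1.12-fold [0.879 to 1.42]). With no scaling factor the fold of Col4a1 was 1.44. Chains of the specialised networks known from kidney glomeruli were lower: Col4a3 by 5.81-fold [3.53 to 10.3] on 16 and 343 counts, Col4a4 by 5.69-fold [2.70 to 14.4] on 7 and 147, and Col4a5 by 3.91-fold [2.67 to 5.96] on 28 and 404. Col4a3 overlaps the antisense gene C430014B12Rik in 5.65% of its exon bases. Col4a6, with 4 and 14 counts, had an interval that spanned 1. Within the sorted library Col4a1 exceeded Col4a3 7.76-fold per kilobase [4.54 to 14.1], against 1.19-fold [1.02 to 1.39] within the depleted library.

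**Figure D4:**
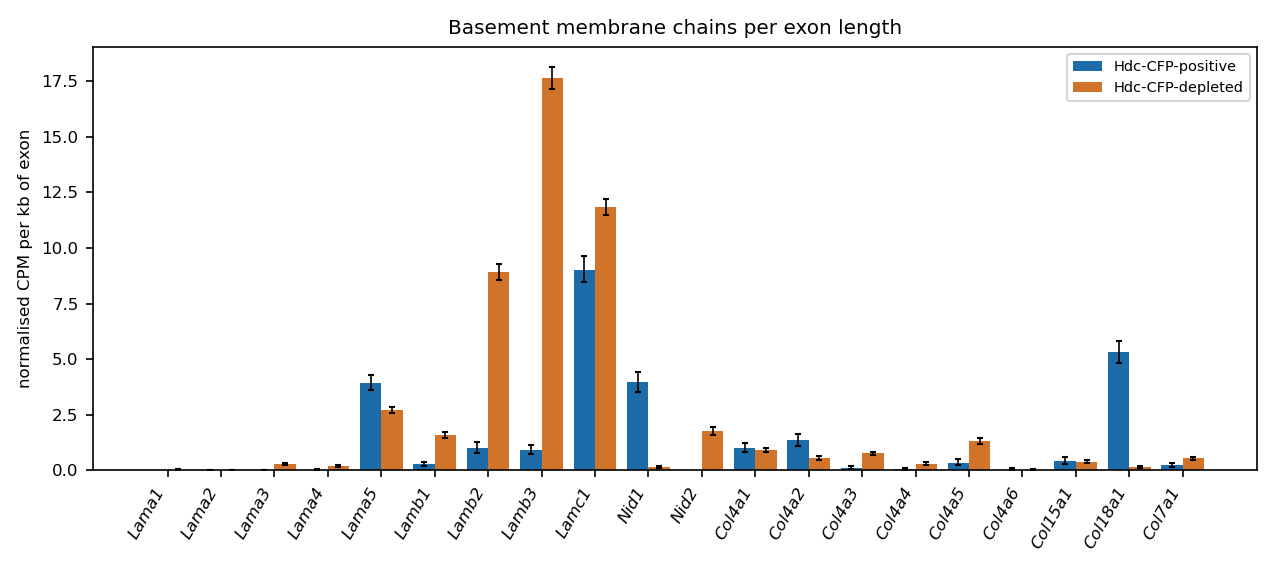
Normalised CPM per kilobase of exon (vertical axis from 0) of the basement membrane chains in the Hdc-CFP-positive (left bar of each pair) and Hdc-CFP-depleted (right bar) libraries, with exact Poisson 95% intervals. Lamb3 is the tallest bar of the depleted library, and in the sorted library the tallest bar is Lamc1, followed by Col18a1, Nid1 and Lama5.

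Genes that make, bind or cut these proteins were examined in lists chosen, like the members, with earlier results of these data known. Each count of calls below is to be read beside the 21.9% of all measured genes called on each side. Of 29 measured genes of collagen synthesis and crosslinking, 8 were higher (27.6%) and 6 lower (20.7%) in the sorted library, near those shares. Colgalt2, which adds galactose to collagen hydroxylysine, was 156-fold higher [90.3 to 294], at 45.1 against 0.290 CPM. Serpinh1, the collagen chaperone of the endoplasmic reticulum, was 5.34-fold lower [4.86 to 5.89], and Tgm2, a crosslinking transglutaminase, 53.6-fold lower [20.8 to 197]. P4hb, a subunit of the prolyl hydroxylase and a general disulfide isomerase, stood at 799 and 1550.3 CPM and was 1.94-fold lower [1.90 to 1.98]. The isomerase gene Ppib was 1.97-fold lower [1.85 to 2.09]. Neither passed 2-fold here, but with DESeq2 size factors both did, at 2.07-fold for P4hb and 2.09-fold for Ppib, as with TMM over all genes. The secretory export gene Mia2 was 1.21-fold lower [1.15 to 1.27] but 1.07-fold higher with no scaling factor. Mia3, an export receptor gene of most cells, was listed at 0 in both libraries, so a 0 in these files does not by itself show absence.

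Integrins, the main matrix receptors, were lower in 8 of 18 measured subunits and higher in 2, or 4 with no scaling factor. Itgb4, the hemidesmosome subunit that binds laminin, stood at 12 against 225 CPM, 18.7-fold lower [15.9 to 22.2]. Its partner subunit Itga6 was 1.61-fold lower [1.53 to 1.68], under 2-fold, and Itgb1, the most widely paired subunit, 1.19-fold lower [1.15 to 1.24] but 1.08-fold higher with no scaling factor. Itga7, a laminin-binding subunit known from muscle, was 21.8-fold lower [15.1 to 32.9], and Itgb5, of the vitronectin receptors, 3.88-fold [3.56 to 4.23]. Itgb8, which binds latent TGF-beta, was 45.7-fold higher [27.0 to 83.3]. Of 17 other measured matrix receptors, 4 were higher and 8 lower. Dag1, which encodes the laminin receptor dystroglycan, was 2.15-fold lower [2.06 to 2.24], a call lost at 1.67-fold with no scaling factor and at 1.85-fold without the 20 most abundant genes. The syndecan genes Sdc1, Sdc4 and Sdc3 were 3.74-fold [3.5 to 4.0], 3.68-fold [3.38 to 4.01] and 9.59-fold lower [7.80 to 11.9], and the glypican gene Gpc1 was 15.0-fold higher [12.2 to 18.7]. The collagen receptor gene Ddr1 was 1.26-fold lower [1.21 to 1.32] but 1.02-fold higher with no scaling factor.

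Other basement membrane genes were higher in 5 and lower in 4 of 11 measured cases. Smoc1 and Smoc2, which encode SPARC-related proteins, were 5.22-fold [4.91 to 5.55] and 20.8-fold higher [18.0 to 24.1], and the netrin gene Ntn4 2.01-fold higher [1.87 to 2.16]. The Ntn4 call was lost with DESeq2 size factors (1.89-fold) and with TMM over all genes (1.86-fold). Agrn, the agrin proteoglycan gene, was 2.99-fold lower [2.80 to 3.20] and Npnt, which encodes the integrin ligand nephronectin, 9.88-fold lower [7.46 to 13.4]. Among 23 measured interstitial matrix genes 9 were higher and 9 lower. Vtn, which encodes the plasma and matrix adhesion protein vitronectin, reached 2789 against 6.57 CPM, 425-fold higher [379 to 478]. Tnr, the tenascin of the nervous system, was 302-fold higher [219 to 430], and Ltbp3, which binds latent TGF-beta, 12.8-fold higher [11.4 to 14.4]. Another tenascin gene, Tnn, was 27.2-fold lower [18.4 to 42.1], and Spp1 (osteopontin) 1.84-fold lower [1.70 to 2.0], under 2-fold.

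Matrix metalloproteinases and their inhibitors were lower in 10 and higher in 6 of 20 measured cases. Mmp15, a membrane-bound protease, stood at 52.9 against 136 CPM, 2.57-fold lower [2.37 to 2.79], a call lost at 1.99-fold with no scaling factor, and Mmp14, of the same type, was 17-fold lower [10.7 to 28.9]. Mmp2, a gelatinase, had 1 sorted and 530 depleted counts, a depleted-to-sorted ratio of 144 [25.7 to 5688]. Mmp24, a membrane-bound protease known from neurons, was 57.7-fold higher [36.7 to 95.8], and the inhibitor gene Timp2 1.96-fold lower [1.76 to 2.20]. With DESeq2 size factors Timp2 was called lower at 2.09-fold, and likewise with TMM over all genes. Each of the 6 lists held genes on both sides of the comparison, as did all measured genes, of which 21.9% were called each way.

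**Figure D5:**
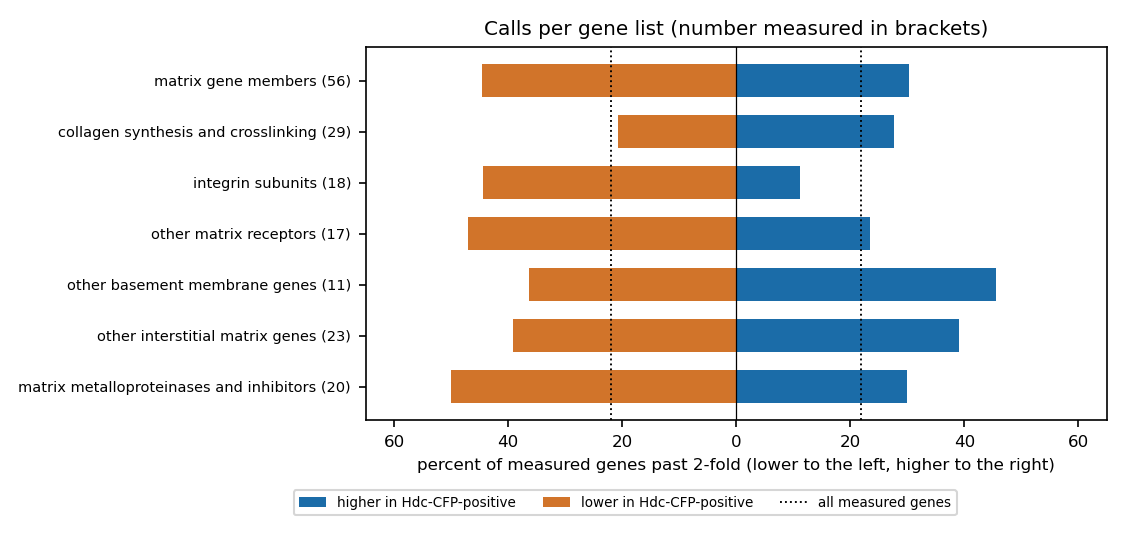
Percent of measured genes past the 2-fold rule in each list, higher in the Hdc-CFP-positive library to the right and lower to the left, with the 21.9% of all measured genes on each side as dotted lines and the number measured in brackets. Measured members reach 30.4% on the higher and 44.6% on the lower side.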

How the data were processed

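An RNeasy kit and the TruSeq RNA kit were used, per the labels' protocols. TopHat2 2.0.07, HTSeq and the build mm9 are named in the submitters' processing notes. Neither annotation release, strand setting nor read length is given in the sources used here. The authors deposited raw counts per Ensembl gene, 1 file per library. Both files held 37681 genes and 5 summary rows that name no gene, which stayed out of library sizes and folds. Those rows held reads outside genes (9.20% of sorted and 4.91% of depleted alignments), ambiguous reads (1.45% and 1.11%) and non-unique alignments (24.2% and 34.3%), so reads of near-identical or overlapping genes are missing.

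Symbols came from GENCODE M21 (GRCm38) and named 32642 identifiers. Exon lengths, overlaps and shared 50-base words came from the same release. TMM factors were computed with edgeR 4.0.16 (R 4.3.3) on genes with at least 10 counts in 1 library, 1.13 (sorted) and 0.882 (depleted). Intervals of folds are Clopper-Pearson and those of CPM exact Poisson, at 95%. They cover counting error only. A count of 0 allows up to 3 counts per library, 0.246 CPM (sorted) or 0.0668 CPM (depleted). Medians used log2 with 0.5 added in proportion to library size. With 1 library per group no test was possible and none was run. Folds and intervals were tested on simulated counts that held counting error only, so that check could not cover variation between libraries or mice.

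Members, lists and alternatives were chosen with earlier results of these data known. One measured member is not reported here and has no point or bar of its own in the plots, while counts, sums and shares over groups include it. Every other measured member could be named, and of each related list the 4 genes with most CPM and the largest fold each way. Mia3, the markers Gif, Kit, Mcpt1, Ctrb1, Cel, Myh11 and Vwf, and the 0-count markers were named after their values were seen. Alternatives were upper-quartile factors, size factors of DESeq2 1.42.0, no factor, a total without the 20 most abundant genes, other count minimums, a 4-fold rule and leaving out genes that share words. TMM over all genes and leaving out overlapping genes were added after seeing the data.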

Additional observations from a re-analysis of the deposited data

How the results depend on the processing

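The 17 higher and 25 lower members, and the negative median, kept their direction under every alternative run, and each count stayed within 1.5 times. Counts ranged from 14 to 18 higher and from 18 to 25 lower, and the median log2 fold from -1.57 to -1.11. With no scaling factor the median of all measured genes moved by 0.36 on the log2 scale, and with a total without the 20 most abundant genes by 0.21. TMM over all genes moved it by -0.11. Without a factor 4741 genes were higher and 2792 lower, against 3652 and 3651. Calls changed for 5 members under a scaling: with no factor Col20a1 reached 2.03-fold higher, while Col5a2, Col6a3, Col7a1 and Col9a3 no longer passed the rule for lower, and Col6a3 and Col9a3 were also lost without the 20 most abundant genes. Over all measured members, 280 folds were recomputed under 5 scalings, and no fold of a called member changed direction. Folds of uncalled members could cross 1, as that of Col11a2 did (0.992-fold, or 1.28-fold with no factor). Of the lists of related genes, measured integrins called higher numbered 4 with no factor against 2, and every other count of those 6 lists stayed within 1.5 times under the 5 scalings. No paired analysis was possible because each group held 1 library. The depth of the sorted library limits folds of members with few counts there.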
